A study of Homo sapiens with 24 samples.

Results

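Estrogen, progesterone and glucocorticoid receptors and the transcription factors that mark luminal or basal mammary cells were followed in 4 triple-negative breast cancer lines after knockdown of the RNA-editing enzyme ADAR1. The set holds 9 of the 37416 genes in the count tables, taken by gene symbol: ESR1, PGR, NR3C1, FOXA1, GATA3, ELF5, FOXC1, SOX10 and TFF1. All 9 passed the filter on low counts. BT549, HCC1806, MDAMB231 and MDAMB468 are established human lines, each grown in DMEM with 10% serum. Each was infected for 24 h with lentivirus, in protamine sulfate at 10 µg/ml, and selected for 72 h in puromycin at 2 µg/ml. The virus carried either shNT, a non-targeting control hairpin, or shADAR1, a hairpin against ADAR1, so controls share infection and selection. The 8 groups of line and hairpin have 3 libraries each, labelled as biological replicates. The sequence of the hairpin is not given in the sources used here, and a single shADAR1 hairpin label is used in all lines. Nothing says whether replicates were separate infections, so the p-values measure the spread between these libraries.

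Triple-negative tumours are defined by the lack of estrogen receptor and progesterone receptor protein and of HER2 amplification. Estrogen receptor alpha, encoded by ESR1, binds DNA with its pioneer factor FOXA1 and with GATA3, and its textbook targets in luminal cells include PGR and TFF1. NR3C1 encodes the glucocorticoid receptor, which is present in most cell types. ELF5 is the factor of the luminal alveolar lineage, while FOXC1 and SOX10 are known as markers of basal-like breast cancer.

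Ribosomal RNA was removed from 1 µg of total RNA before sequencing, and reads were counted per gene. Levels are CPM, the count of a gene relative to the library total, scaled by trimmed mean of M-values (TMM) factors. Libraries held 10370645 to 97218217 counts, with a median of 51996976. A floor of 3 counts corresponded to 0.0331 to 0.277 CPM per library, and covers counting error only. In each library more genes had exactly 2 counts (1510 to 1844) than exactly 1 (626 to 833), so a count of 2 in these tables may often stand for 1 fragment. Where it does, the floor is too low and folds against it are too high. ADAR, the target gene, fell in every line, to 26.1% of the shNT level (BT549), 33.1% (HCC1806), 21.9% (MDAMB231) and 37.1% (MDAMB468). The shNT means were 516, 354, 293 and 417 CPM in that order, and no shADAR1 library reached the level of any shNT library of its line.

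Epithelial genes separated the lines in shNT. Of 7 epithelial markers, all 7 reached a mean of 1 CPM in HCC1806 and in MDAMB468, 5 did in MDAMB231 and 1, CLDN4, did in BT549. E-cadherin (CDH1) was at 251 CPM in HCC1806 and 188 CPM in MDAMB468, but at 0.0739 CPM in MDAMB231 and 0.0952 CPM in BT549. The summed level of 5 mesenchymal markers ran from 6907 to 9136 CPM in BT549 and from 4607 to 5242 CPM in MDAMB231. It ran from 78.8 to 275 CPM in HCC1806 and from 49.1 to 68.4 CPM in MDAMB468. Most of the MDAMB231 sum was VIM, with 4305 CPM of a mean sum of 4978 CPM. A mean of 1 CPM was reached by 3 of these markers in MDAMB231, as in MDAMB468, by 4 in HCC1806 and by all 5 in BT549. CDH2 was lower in MDAMB231 (0.254 CPM) than in HCC1806 (30 CPM). VIM, ZEB1 and FN1 were higher in MDAMB231, and SPARC was under 1 CPM in both. Among markers of other cells, the leukocyte gene PTPRC stayed under 1 CPM in every line, with a highest mean of 0.533 CPM in BT549. The fibroblast gene LUM had 58.5 CPM in BT549 and at most 0.32 CPM elsewhere, and the lysosomal macrophage marker CD68 ran from 2.12 CPM in MDAMB468 to 91 CPM in MDAMB231.

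ESR1 mRNA was easily counted in 2 of the 4 lines. ESR1 (ENSG00000091831) is listed at chr6:151656691-152129619 on the plus strand. In HCC1806 the shNT libraries had 21.1, 18 and 18 CPM, from 480, 866 and 933 counts. In MDAMB468 they had 8.14, 6.72 and 5.68 CPM, and in MDAMB231 0.277, 0.645 and 0.464 CPM. BT549 gave 2 counts in 1 library and 0 in the other two. The groups did not overlap, and each of the 6 pairs of lines passed the edgeR test, which was adjusted over all genes and all pairs. HCC1806 was 2.79-fold above MDAMB468 (log2 difference 1.48, SE 0.249, adjusted p = 1.79e-05) and 37.1-fold above MDAMB231 (adjusted p = 2.14e-12). Against the 2 counts of BT549 the ratio for HCC1806 was 1526, with a 95% interval from 422 to 12612 that takes each count as independent. That interval is too narrow if the 2 counts stand for 1 fragment. Per kilobase of gene model, ESR1 in HCC1806 stood at 1.4 CPM, above 43.7% of the 21352 genes tested, so it is a gene of middling level there. In MDAMB468 it stood above 30.8%, in MDAMB231 above 11.8% and in BT549 above 5.78%.

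PGR and TFF1, both targets of estrogen receptor alpha in luminal cells, were highest in MDAMB231 and not in the lines with more ESR1. PGR (ENSG00000082175, chr11:101029624-101130524, minus strand) had 0.923, 0.846 and 0.442 CPM in the shNT libraries of MDAMB231, from 10, 38 and 20 counts. All 3 shNT libraries of MDAMB468 had 0 counts, and the MDAMB231 mean was 32.2-fold the floor of 3 counts over that group (edgeR test of the 2 lines, adjusted p = 0.000547). HCC1806 had 2, 3 and 2 counts, and BT549 0, 6 and 0. PGR in MDAMB231 was 11.7-fold above HCC1806 (adjusted p = 0.0118), while the other 3 lines did not pass the test against each other. PGR overlaps PGR-AS1 on the opposite strand, and ESR1 overlaps the antisense gene AL356311.1 and the intronic gene AL078582.1. These overlapping genes were not among those counted. Their shared exon bases and the use of strand in counting are not known, so reads from them may be included.

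TFF1 (ENSG00000160182, chr21:42362282-42366594, minus strand), which encodes a secreted trefoil peptide, had 6, 6 and 16 counts in MDAMB231 and 0 in all shNT libraries of HCC1806 and MDAMB468. In CPM the MDAMB231 libraries were at 0.554, 0.134 and 0.354. Their mean of 0.347 CPM was 14.2-fold the floor over the HCC1806 group (edgeR test between the lines, adjusted p = 0.0014). It was 15.2-fold the floor over the MDAMB468 group (same test, adjusted p = 0.00119). These ratios are not lower limits, since they leave out the counting error of the few MDAMB231 counts. BT549 had 1 count in 1 library. These are low levels in absolute terms, and PGR in MDAMB231 lay above 13.5% of the genes tested per kilobase.

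ERBB2, which encodes HER2 and completes the triple-negative definition, was present at similar levels in all lines, with shNT means of 100 ± 15.6 CPM in HCC1806, 95.5 ± 6.86 in BT549, 89 ± 9.6 in MDAMB231 and 75.9 ± 8.24 in MDAMB468 (SD, n = 3). MDAMB468 was lower than HCC1806 by 1.32-fold (adjusted p = 0.0108) and than BT549 by 1.26-fold (adjusted p = 0.0314), and the other 4 pairs did not pass. ERBB2 shares 571 exon bases with MIEN1 and 194 with PGAP3, both on the opposite strand. Whether counting used strand is not given in the sources used here, so reads from shared bases cannot be assigned.

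**Figure D1:**
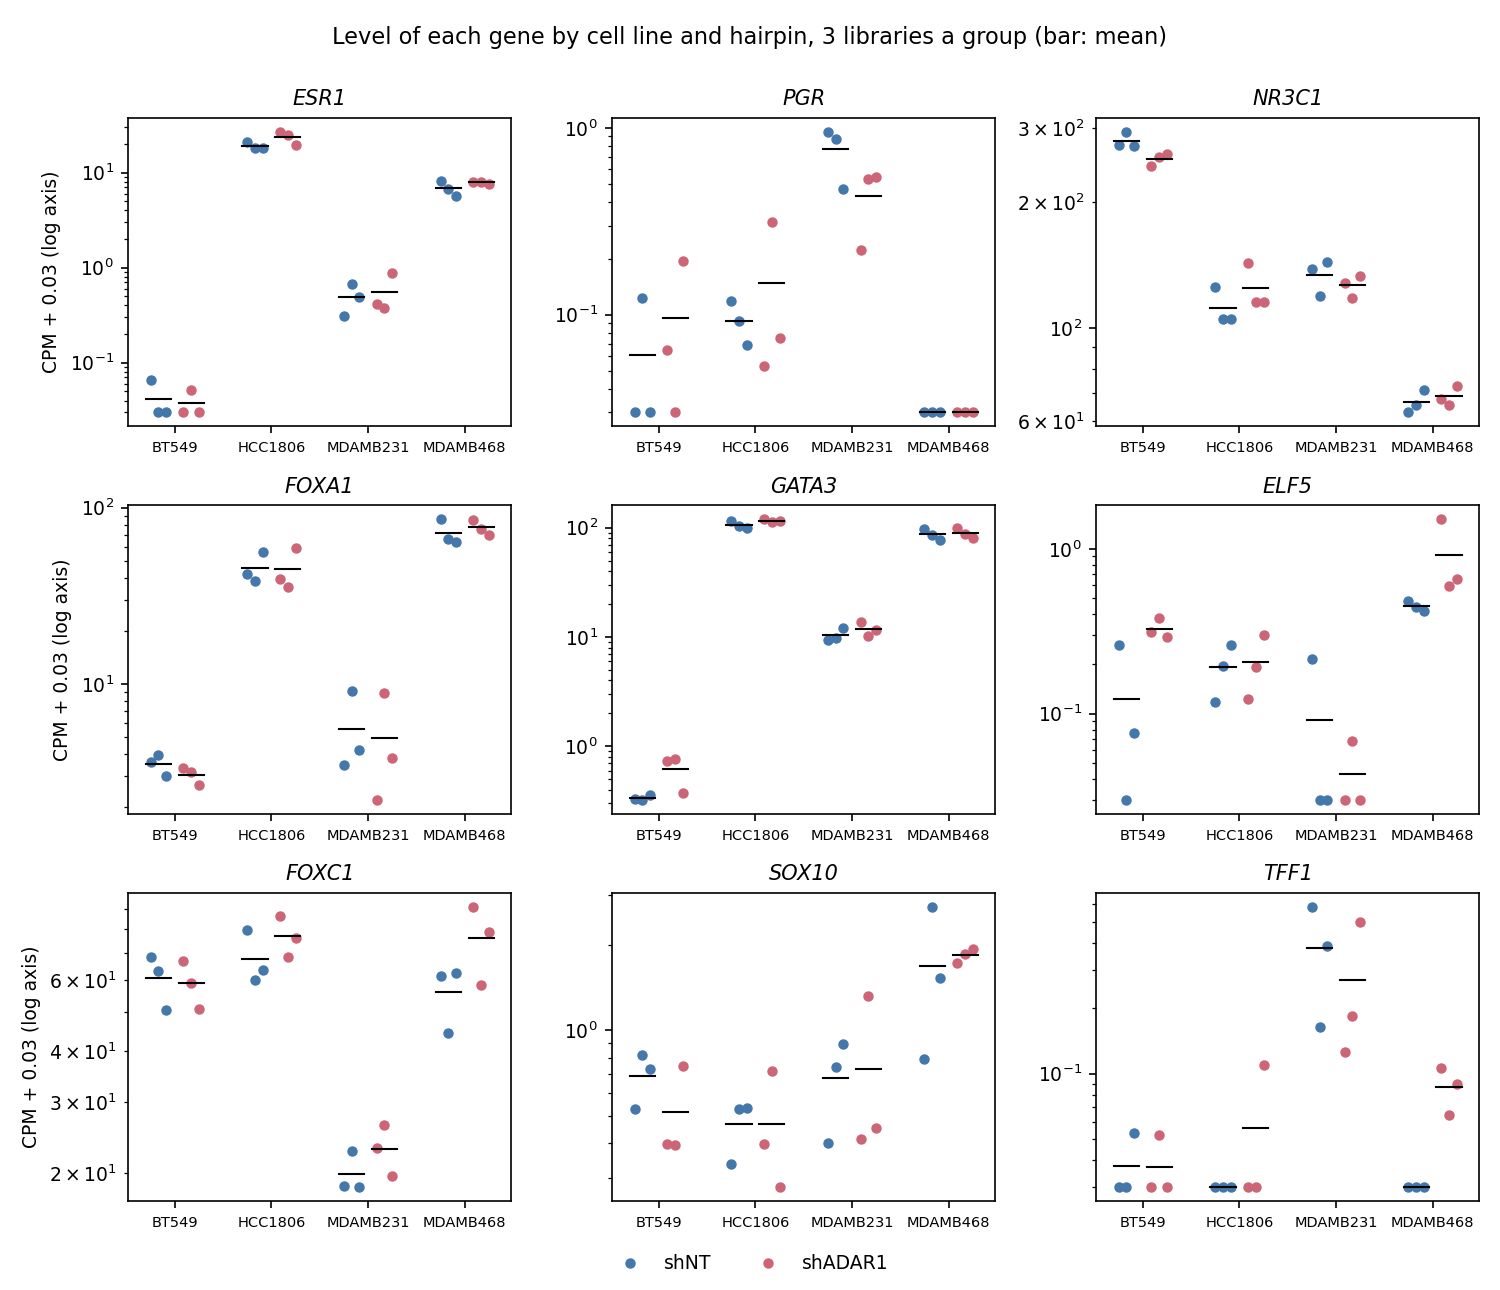
Level of each of the 9 genes in every library, as CPM plus 0.03 on a log axis, by line and hairpin; points are libraries and bars group means. The 3 libraries of a group lie close together for NR3C1, GATA3 and ESR1 in HCC1806, and PGR in MDAMB468 sits at 0 in both arms.

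NR3C1 was well expressed in every line. It is listed as ENSG00000113580 at chr5:143277931-143435512 on the minus strand. The shNT libraries had 273, 294 and 272 CPM in BT549, 138, 119 and 144 in MDAMB231, 125, 105 and 105 in HCC1806, and 62.8, 65.5 and 71.2 in MDAMB468. Only MDAMB231 and HCC1806 overlapped. BT549 was 2.1-fold above MDAMB231 (log2 difference 1.07, SE 0.0974, adjusted p = 1.7e-09) and 4.2-fold above MDAMB468 (adjusted p = 2.35e-14). MDAMB231 and HCC1806 differed by 1.19-fold (adjusted p = 0.0259). That call was lost without replicate 2 or 3 of HCC1806 (adjusted p = 0.107 and 0.111), without replicate 1 or 3 of MDAMB231 (0.0738 and 0.136) and also without the filter on low counts (adjusted p = 0.0698). Per kilobase, NR3C1 led the 9 genes in BT549 at 30.5 CPM and in MDAMB231 at 14.6 CPM.

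FOXA1 and GATA3, the partners of estrogen receptor alpha, were high in HCC1806 and MDAMB468, the lines with all 7 epithelial markers, and lower in MDAMB231 and BT549. FOXA1 (ENSG00000129514) is listed at chr14:37589984-37596059 on the minus strand and GATA3 (ENSG00000107485) at chr10:8053604-8075198 on the plus strand. Windows around their RefSeq starts (build GRCh38.p14, 250 bases before to 50 after) are shown with those of FOXC1 and ELF5. These 4 lineage factors range from abundant to barely counted. RefSeq starts need not match the listed gene starts, and the FOXA1 and ELF5 windows lie wholly inside the listed spans. Each is written 5′ to 3′ on the strand of its gene. The FOXA1 window is chr14:37595200-37595499 (minus), the GATA3 window nearest to its listed start is chr10:8053391-8053690 (plus), the FOXC1 window is chr6:1609665-1609964 (plus) and the ELF5 window is chr11:34511675-34511974 (minus). Capitals mark matches to the searched motifs.
FOXA1: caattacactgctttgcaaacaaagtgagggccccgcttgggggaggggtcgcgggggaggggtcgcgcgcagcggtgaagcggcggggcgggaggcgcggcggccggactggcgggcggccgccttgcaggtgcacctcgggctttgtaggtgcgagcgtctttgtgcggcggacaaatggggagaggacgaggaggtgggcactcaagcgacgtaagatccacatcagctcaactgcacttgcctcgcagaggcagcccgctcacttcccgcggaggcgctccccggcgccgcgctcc
GATA3: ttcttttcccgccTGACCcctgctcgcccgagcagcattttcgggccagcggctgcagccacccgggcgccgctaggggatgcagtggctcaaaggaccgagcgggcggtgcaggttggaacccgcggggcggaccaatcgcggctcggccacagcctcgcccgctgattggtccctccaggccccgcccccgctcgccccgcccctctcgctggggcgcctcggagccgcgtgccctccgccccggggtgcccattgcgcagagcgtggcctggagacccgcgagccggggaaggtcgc
FOXC1: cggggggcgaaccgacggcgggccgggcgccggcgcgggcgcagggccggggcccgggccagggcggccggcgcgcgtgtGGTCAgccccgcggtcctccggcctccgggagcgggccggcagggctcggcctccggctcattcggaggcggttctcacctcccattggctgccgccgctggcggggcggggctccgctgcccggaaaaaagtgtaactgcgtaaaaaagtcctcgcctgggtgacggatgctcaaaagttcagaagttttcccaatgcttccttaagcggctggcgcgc
ELF5: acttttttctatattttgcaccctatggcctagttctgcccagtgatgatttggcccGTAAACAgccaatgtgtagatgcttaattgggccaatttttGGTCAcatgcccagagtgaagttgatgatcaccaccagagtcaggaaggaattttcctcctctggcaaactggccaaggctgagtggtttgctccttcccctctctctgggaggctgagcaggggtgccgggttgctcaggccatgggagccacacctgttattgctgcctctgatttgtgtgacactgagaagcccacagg

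These windows share a high density of CpG in 3 genes and lack it in the fourth. FOXA1 held 34 CpG, GATA3 36 and FOXC1 40, against 2 in ELF5 and a median of 14 over all 35116 RefSeq windows. GATA3 has 6 RefSeq windows, and those not shown held from 5 to 29 CpG. GC content was 69.3% in FOXA1, 74.7% in GATA3, 72.7% in FOXC1 and 51.3% in ELF5. Both strands were searched. The GATA motif was searched as AGATAA and the forkhead motif as TGTTTAC. SOX factors were searched by ACAATG, ETS factors by CCGGAAG, and the glucocorticoid response element by its half-site TGTTCT. Estrogen receptor was searched by its full palindromic response element and by the half-site GGTCA, which lies within it. GGTCA was found in GATA3, FOXC1 and ELF5, as in 37.4% of all windows. The forkhead motif was found in ELF5, 193 bases before the RefSeq start and on the minus strand of the window, as in 3.42% of all windows. FOXA1 held no match. The full estrogen response element is in 0.057% of all windows and in none of the 25 windows of the 7 genes with a RefSeq entry. A match is a description of the letters only.

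FOXA1 levels fell into a high and a low pair of lines. The shNT libraries had 85.9, 66.1 and 63.8 CPM in MDAMB468 and 42.1, 38.4 and 56 in HCC1806, against 3.41, 9.04 and 4.18 in MDAMB231 and 3.55, 3.91 and 2.95 in BT549. FOXA1 shares 16 exon bases with TTC6 on the opposite strand, whose shNT means ran from 0.0428 to 7.78 CPM. The lowest library of the high pair had 38.4 CPM and the highest of the low pair 9.04 CPM. MDAMB468 was 12.3-fold above MDAMB231 (log2 difference 3.62, SE 0.356, adjusted p = 5.79e-09) and HCC1806 was 13-fold above BT549 (adjusted p = 3.77e-09). Within each pair the test was not passed: MDAMB468 against HCC1806 gave 1.58-fold (adjusted p = 0.0715) and MDAMB231 against BT549 1.67-fold (adjusted p = 0.0727). Both were called with upper-quartile scaling (adjusted p = 0.0453 and 0.0463), with no filter on low counts (0.0432 and 0.0403) and in a fit of the shNT libraries alone (0.0206 and 0.0318). Leaving out replicate 3 of HCC1806 gave adjusted p = 0.047 for the high pair, and leaving out replicate 1 or 3 of MDAMB231 gave 0.0354 or 0.0383 for the low pair.

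GATA3 had counts in every library and ranged from under 1 to over 100 CPM. The shNT libraries had 116, 104 and 98.8 CPM in HCC1806, 97.3, 86.1 and 77.1 in MDAMB468, 9.41, 9.82 and 12.1 in MDAMB231, and 0.302, 0.293 and 0.326 in BT549. The 4 lines did not overlap. HCC1806 was 346-fold above BT549 (log2 difference 8.43, SE 0.216, adjusted p = 5.17e-19) and 10.1-fold above MDAMB231 (adjusted p = 1.51e-14). HCC1806 and MDAMB468 differed by 1.22-fold, which did not pass (adjusted p = 0.0753). With the replicate number as a block across lines it did (adjusted p = 0.047). MDAMB231 was 34.3-fold above BT549 (adjusted p = 1.62e-15). Per kilobase, GATA3 led the 9 genes in HCC1806 at 32.7 CPM and in MDAMB468 at 26.7 CPM, above 93.4% and 92.9% of the genes tested.

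ELF5 was near the floor in every line. ELF5 (ENSG00000135374) is listed at chr11:34478793-34513805 on the minus strand. MDAMB468 had the most, with 0.455, 0.415 and 0.389 CPM from 12, 20 and 22 counts. HCC1806 had 2, 8 and 12 counts, BT549 13, 0 and 2, and MDAMB231 2, 0 and 0. MDAMB468 was above BT549 by 4.43-fold (adjusted p = 0.0363), a call lost in a fit of the shNT libraries alone (adjusted p = 0.0599) and in each fit without a library of these lines other than replicate 1 of BT549 (adjusted p = 0.0591 to 0.132). Against MDAMB231 the ratio was 20.8, with a 95% interval from 5.48 to 176 that takes each count as independent (edgeR adjusted p = 0.00579).

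FOXC1 was abundant in 3 lines and lower in MDAMB231. It is a gene of a single exon, ENSG00000054598, listed at chr6:1609972-1613897 on the plus strand. The shNT libraries had 79.5, 59.9 and 63.5 CPM in HCC1806, 68.5, 63.2 and 50.5 in BT549, 61.3, 44.3 and 62.5 in MDAMB468, and 18.5, 22.7 and 18.4 in MDAMB231. The first 3 lines overlapped, and MDAMB231 lay below all of them. HCC1806 was 3.38-fold above MDAMB231 (log2 difference 1.76, SE 0.177, adjusted p = 9.26e-09), BT549 3.04-fold and MDAMB468 2.8-fold. Among the 3 high lines no pair passed, with adjusted p = 0.177 for the widest gap, HCC1806 against MDAMB468.

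SOX10 was low in all lines, with its highest mean in MDAMB468. SOX10 (ENSG00000100146) is listed at chr22:37970686-37987422 on the minus strand. The shNT libraries had 0.758, 2.69 and 1.5 CPM in MDAMB468, 0.497, 0.786 and 0.698 in BT549, 0.369, 0.712 and 0.862 in MDAMB231, and 0.308, 0.499 and 0.502 in HCC1806. The lowest library of MDAMB468 lay among those of BT549 and MDAMB231. MDAMB468 was 3.72-fold above HCC1806 (adjusted p = 0.00244), 2.53-fold above BT549 (adjusted p = 0.0196) and 2.42-fold above MDAMB231 (adjusted p = 0.0311). The first call held in each fit without a library of its lines. The second was lost without replicate 1 of BT549 (adjusted p = 0.0789) or replicate 2 of MDAMB468 (0.193). The third was lost without replicate 1 or 2 of MDAMB231 (0.0931 and 0.0683) or replicate 2 of MDAMB468 (0.248). SOX10 shares 89 exon bases with POLR2F on the opposite strand, an RNA polymerase subunit whose shNT mean was 46.1 CPM in MDAMB468 and 24.4 to 34.8 CPM in the other lines. The part of those bases in the SOX10 counts was not tested.

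**Figure D2:**
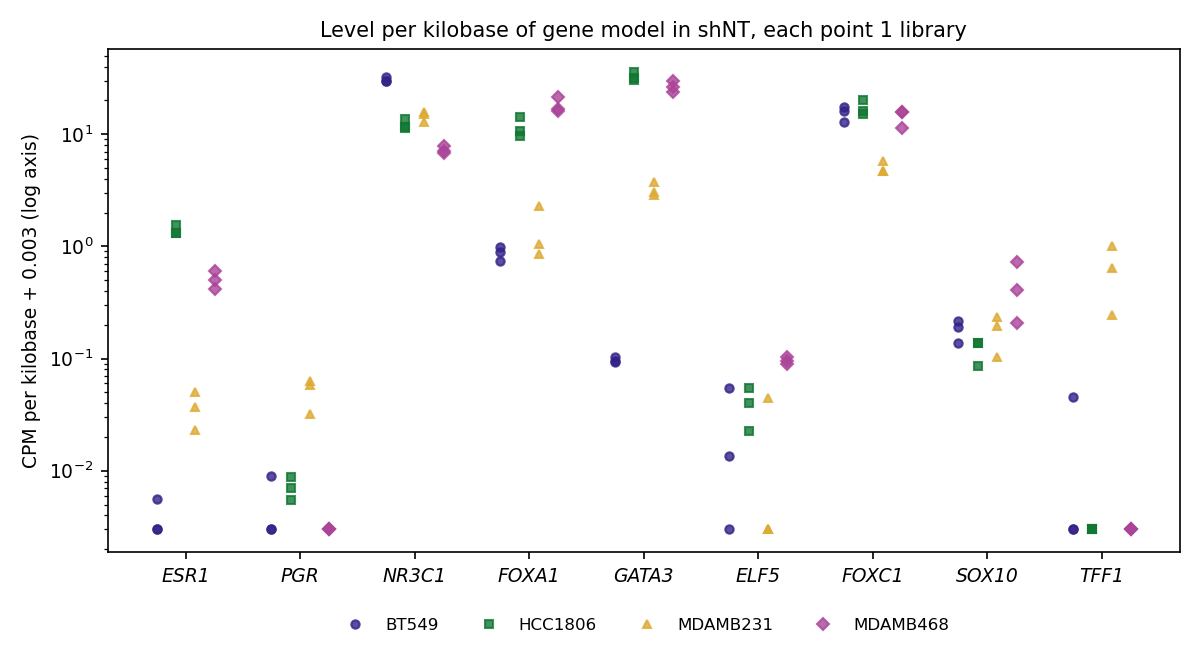
CPM per kilobase of gene model plus 0.003 on a log axis for the 9 genes in the shNT libraries, each point 1 library and each colour a line. NR3C1 and FOXC1 lie above 5 CPM per kilobase on average in all lines, while GATA3 runs from 0.0943 in BT549 to 32.7 in HCC1806.

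On the scale of CPM per kilobase, which allows genes to be set beside each other, NR3C1, FOXC1 and FOXA1 led in BT549 at 30.5, 15.5 and 0.872. In HCC1806 the order was GATA3, FOXC1, NR3C1, FOXA1 and ESR1, at 32.7, 17.2, 12.2, 11.4 and 1.4. MDAMB231 had NR3C1, FOXC1, GATA3 and FOXA1 at 14.6, 5.07, 3.21 and 1.39. MDAMB468 had GATA3, FOXA1, FOXC1 and NR3C1 at 26.7, 18.1, 14.3 and 7.25. Both the luminal factors GATA3 and FOXA1 and the basal-like marker FOXC1 were therefore counted at more than 11 CPM per kilobase in HCC1806 and in MDAMB468. The deposited RPKM values gave the same order of the 9 genes in each line.

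Differences between these lines were the rule for most genes, and the set was not unusual in that. Over all 6 pairs of lines 60.8% of gene tests passed. MDAMB231 and MDAMB468 differed in 9 of the 9 genes, beside 61.7% of all genes tested. HCC1806 and MDAMB468 differed in 3 of 9, ESR1, NR3C1 and SOX10, beside 62.7% of all genes. Between those lay BT549 against HCC1806 with 4 (63.2%), BT549 against MDAMB231 with 6 (56.9%), BT549 against MDAMB468 with 6 (61%) and HCC1806 against MDAMB231 with 7 (59.2%). ESR1 and NR3C1 passed in all 6 pairs, as 11.7% of genes did.

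The genes whose levels followed each factor most closely over the 24 libraries were taken by Pearson correlation of log2(CPM + 1) among 11481 genes. Libraries of a line share most of their expression, so these values mainly describe 4 line means and carry no test. GATA3 was followed by CLDN7, a tight junction claudin (r = 0.998), which had shNT means of 119, 98.1, 12.3 and 0.357 CPM in HCC1806, MDAMB468, MDAMB231 and BT549, then by TMEM184A (0.994) and AFTPH (0.993). ESR1 was followed by ANXA8 (0.995) and MAL2 (0.991). FOXA1 was nearest to PRSS16 (0.992), TTLL4 (0.987) and TCF20 (0.984), and NR3C1 to VGLL3 (0.989), FIGN (0.985) and SYT1 (0.985). FOXC1 was nearest to TRIP13 (0.964), ISL2 (0.961) and H1-3 (0.961). SOX10 had no follower as close, with CLTA highest at 0.869 and PRPF3 at 0.858. Taken over deviations from the line means, which leaves out the differences between lines, the nearest genes were EVL (0.918) and FOXO6 (0.916) for FOXA1, TMCC2 (0.882) and GOT1 (0.829) for FOXC1, and STIL and PARP8 (both 0.817) for NR3C1. For ESR1 they were ANXA8L1 (0.805) and ENSG00000276850 (0.766), for GATA3 CMPK1 (0.793) and HNRNPH3 (0.773), and for SOX10 L3HYPDH (0.691) and DHX35 (0.672).

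Levels of 2 other steroid receptors were chosen for description after their values were seen. NR3C2, the mineralocorticoid receptor, was highest in MDAMB231 at 16.9 CPM and lowest in HCC1806 at 1.01 CPM, a 16.7-fold difference (adjusted p = 9.13e-12). ESR2, encoding estrogen receptor beta, had means from 2.49 CPM in BT549 to 4.79 CPM in MDAMB468.

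With ADAR1 knocked down, none of the 9 genes passed the test within a line. By edgeR the count was 0 of 9 in BT549, HCC1806, MDAMB231 and MDAMB468, beside 0.473%, 0.0468%, 2.01% and 0.0375% of all genes. Before adjustment, p was under 0.05 for 1, 0, 0 and 2 of the 9, beside 6.42%, 4.35%, 11.7% and 3.76% of all genes. DESeq2 called GATA3 in BT549, where it called 1.4% of all genes, and 0 of the 9 in the other lines (0.197%, 3.8% and 0.197%), with 4, 1, 4 and 4 of the 9 left without an adjusted p. In the mean of the 4 line effects GATA3 alone passed, beside 2.96% of all genes, 1.26% being higher in shADAR1. DESeq2 also called GATA3 alone in the mean (4.94% of all genes).

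Pairing the arms by replicate number raised the calls over all genes in every line. With the block in all lines 1, 0, 0 and 1 of the 9 passed, beside 5.14%, 2.1%, 11.4% and 1.66% of all genes, and 2 in the mean (13.2%). The labels do not say that numbers match between the arms. A second fit kept the block to the 3 lines where deviations from the group mean correlated above 0.1 in each same-numbered pair. In that fit 0 of the 9 passed in each line, beside 2.85%, 0.81%, 8.31% and 0.422%, and GATA3 passed in the mean (9.55%). The order of the 4 lines was the same in shADAR1 as in shNT for ESR1, PGR, NR3C1, FOXA1 and GATA3.

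GATA3 was higher with shADAR1 on average, and BT549 gave most of that value. In BT549 the shADAR1 libraries had 0.702, 0.728 and 0.344 CPM from 40, 66 and 21 counts, against 0.302, 0.293 and 0.326 CPM from 17, 19 and 14 counts in shNT. The arms did not overlap, and replicate 3 of shADAR1 lay just above the shNT libraries. The log2 difference was 0.97 (SE 0.258, 95% interval 0.44 to 1.51, adjusted p = 0.119). It passed with DESeq2 (adjusted p = 0.0346) with the replicate block in all lines (0.0183) and without replicate 3 of shADAR1 (0.00746), but not with the block in 3 lines (0.0609). In the other lines the arms overlapped. HCC1806 had 119, 113 and 116 CPM with shADAR1 (log2 difference 0.13, 95% interval -0.16 to 0.42), MDAMB231 13.8, 10.2 and 11.6 CPM (0.16, -0.15 to 0.48) and MDAMB468 100, 87.7 and 80.1 CPM (0.04, -0.25 to 0.33).

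The mean GATA3 effect over the 4 lines was a log2 difference of 0.33 (SE 0.0897, 95% interval 0.14 to 0.51, adjusted p = 0.0486). It was lost with RLE scaling (adjusted p = 0.0676) and with upper-quartile scaling (0.0513), and in 18 of 24 fits that each left out 1 library (adjusted p up to 0.172). The call held without replicate 3 of shADAR1 in BT549 (0.00316), replicate 1 of shNT in HCC1806, replicate 2 of shADAR1 or 3 of shNT in MDAMB231, and replicate 3 of shADAR1 or 1 of shNT in MDAMB468. It held with DESeq2 (0.0173) and with the block in 3 lines (0.0164). Over HCC1806, MDAMB231 and MDAMB468 alone the log2 difference was 0.11 (95% interval -0.06 to 0.28, adjusted p = 0.734). Tested jointly, the 4 line effects of GATA3 did not differ past the threshold (F = 3.51, unadjusted p = 0.0319, adjusted p = 1). None of the 9 genes passed that joint test (0.0234% of all genes). Only 1, GATA3, had p under 0.05 before adjustment (4.44%), and DESeq2 called 0 (0.585%). With the block in all lines 2 passed, FOXC1 and NR3C1 (4.69%), and with the block in 3 lines 0 (1.45%).

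**Figure D3:**
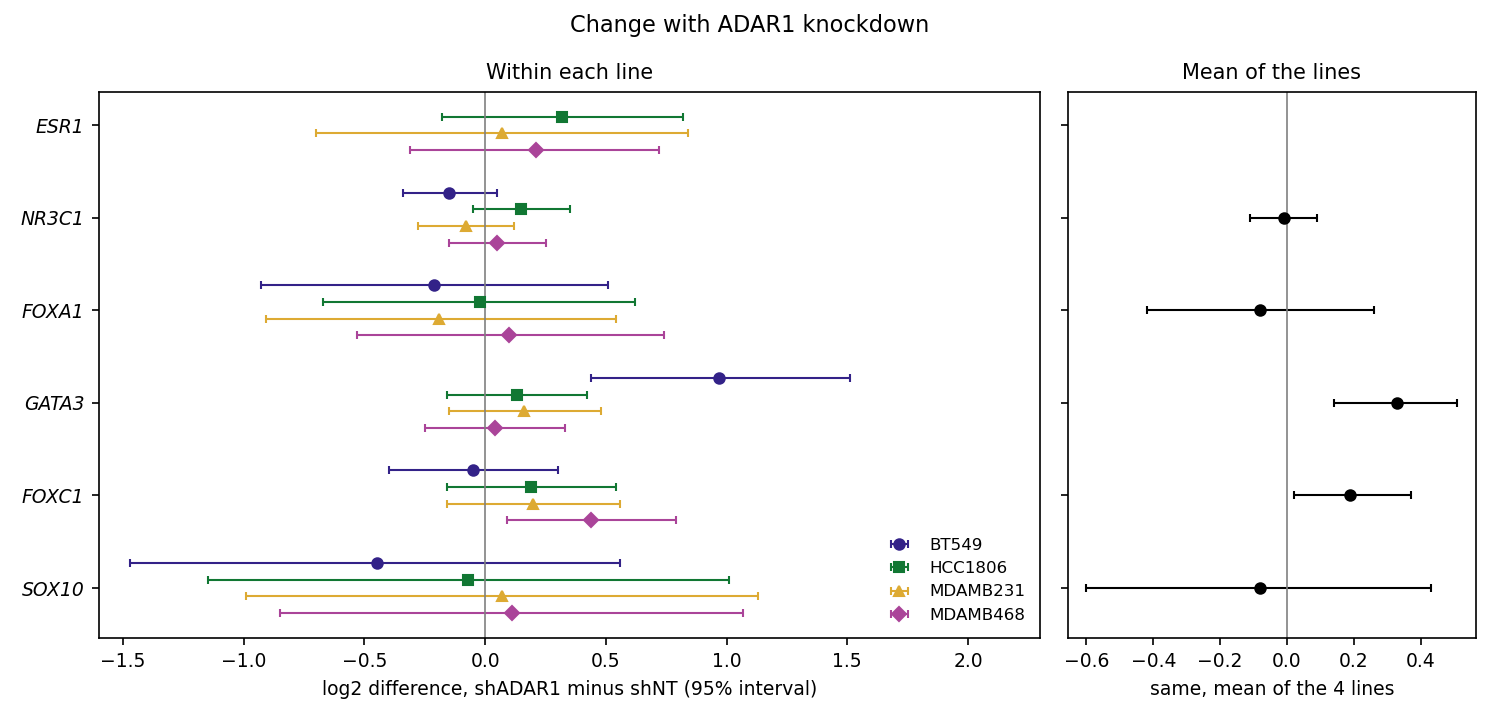
Log2 difference of shADAR1 minus shNT with its 95% interval, in each line (left) and as the mean of the 4 lines (right), for the 6 genes with enough counts; ESR1 has no value in BT549 and no mean, since that line has 2 counts in each arm. The interval of GATA3 in BT549 runs from 0.44 to 1.51, and those of NR3C1 are the narrowest.

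FOXC1 showed its highest difference in MDAMB468. The shADAR1 libraries had 90.9, 58.1 and 78.9 CPM and the shNT libraries 61.3, 44.3 and 62.5 CPM. Each shADAR1 library was above the shNT library of its own number, but the arms overlapped. The log2 difference was 0.44 (SE 0.169, 95% interval 0.09 to 0.79, unadjusted p = 0.0166, adjusted p = 1). With the replicate block in all lines the adjusted p was 0.000531, and with the block in 3 lines it was 0.183. In this line the correlation of same-numbered libraries was 0.165, 0.166 and 0.0651 for replicates 1, 2 and 3. Only replicate 3 fell under the cut of 0.1. The mean over lines was 0.19 (adjusted p = 0.318, 0.000237 with the block in all lines and 0.0651 with the block in 3 lines). Without BT549 the mean was 0.27 (95% interval 0.07 to 0.48, adjusted p = 0.241), and it passed with the block in 3 lines (0.0308) and with the block in all lines (4.05e-05). In HCC1806 the shADAR1 libraries had 86.2, 68.3 and 76.1 CPM (log2 difference 0.19), in MDAMB231 23, 26.2 and 19.6 CPM (0.20) and in BT549 66.6, 58.9 and 50.8 CPM (-0.05), with overlapping arms in each. Each shADAR1 library was above the shNT library of its number in HCC1806 and in MDAMB231, and 1 of 3 was in BT549. That pattern was not particular to FOXC1. GATA3 showed it in BT549, HCC1806 and MDAMB468, and ESR1 and NR3C1 in HCC1806, among others. The labels do not say that the numbers match, and the share of all genes with this pattern was not counted.

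The glucocorticoid receptor gene gave the tightest limits. NR3C1 in BT549 had 243, 256 and 260 CPM with shADAR1 and 273, 294 and 272 CPM with shNT. The arms did not overlap, and the log2 difference was -0.15 (95% interval -0.34 to 0.05, adjusted p = 0.971). In HCC1806 it was 0.15 (-0.05 to 0.35), in MDAMB231 -0.08 (-0.28 to 0.12) and in MDAMB468 0.05 (-0.15 to 0.25). The mean over the lines was -0.01 (95% interval -0.11 to 0.09). With the block in 3 lines the interval was -0.27 to -0.02 in BT549 (adjusted p = 0.259) and 0.02 to 0.27 in HCC1806 (adjusted p = 0.369). The line values had both signs, so a mean near 0 does not show that each line was unchanged.

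ESR1 did not pass in any line. In HCC1806 the shADAR1 libraries had 26.8, 25.1 and 19.5 CPM, against 21.1, 18 and 18 CPM, a log2 difference of 0.32 (95% interval -0.18 to 0.82, adjusted p = 1). In MDAMB468 they had 8.02, 7.96 and 7.61 CPM, a log2 difference of 0.21 (-0.31 to 0.72), and in MDAMB231 0.383, 0.346 and 0.844 CPM, a difference of 0.07 (-0.70 to 0.84). The arms overlapped in all of these lines. BT549 had 2 counts in each arm.

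FOXA1 libraries kept the same order of replicate numbers in both arms of HCC1806 and of MDAMB231, as the plot of libraries joined by number shows. In HCC1806 replicates 1, 2 and 3 had 42.1, 38.4 and 56 CPM with shNT and 39.4, 35.5 and 59.2 CPM with shADAR1. In MDAMB231 they had 3.41, 9.04 and 4.18 CPM with shNT and 2.16, 8.78 and 3.77 CPM with shADAR1. Replicate 3 was highest in both arms of HCC1806 and replicate 2 in both arms of MDAMB231, so the spread within an arm was wider than the gap between hairpins. The log2 difference in HCC1806 was -0.02 (SE 0.309), and with the block in 3 lines the SE was 0.103. In MDAMB231 the SE went from 0.349 to 0.142. No line passed in either fit, and the mean was -0.08 (95% interval -0.42 to 0.26).

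**Figure D4:**
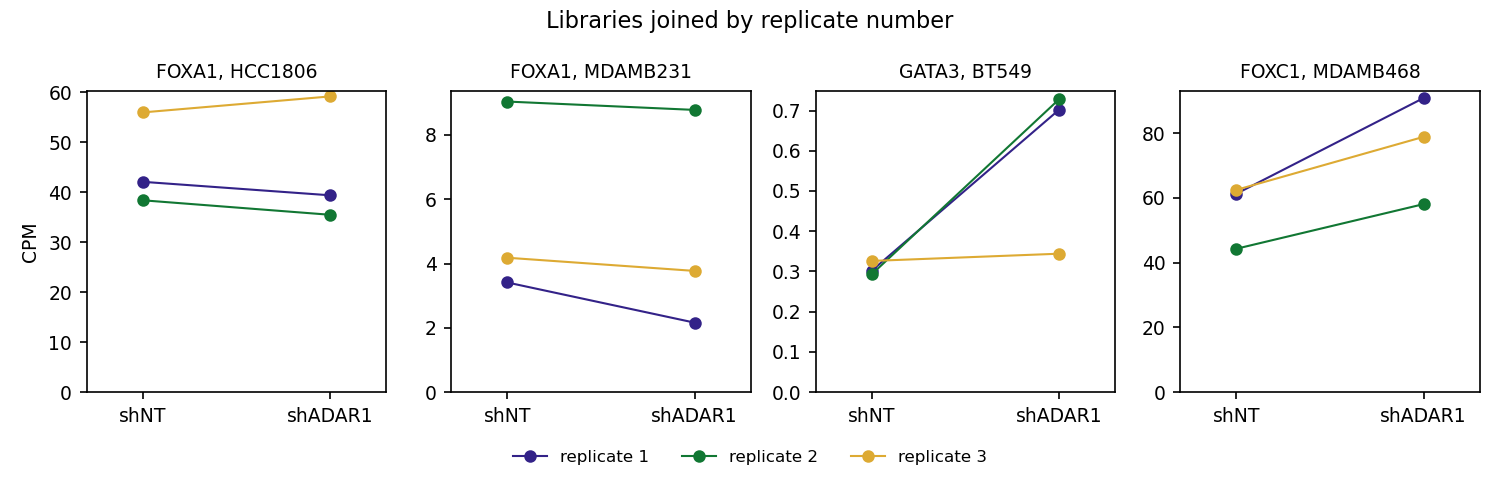
CPM in the libraries of FOXA1 in HCC1806 and MDAMB231, GATA3 in BT549 and FOXC1 in MDAMB468, with shNT and shADAR1 libraries of the same replicate number joined by a line; axes start at 0. For FOXA1, replicate 3 in HCC1806 and replicate 2 in MDAMB231 stand above the other two in both arms, while 2 of the GATA3 lines end at 0.702 and 0.728 CPM and the other at 0.344.

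ELF5, SOX10, PGR and TFF1 had too few counts for narrow limits. ELF5 in BT549 had 16, 32 and 16 counts with shADAR1 against 13, 0 and 2, and in MDAMB468 39, 33 and 42 against 12, 20 and 22. The arms did not overlap in either line, and the log2 differences of 1.67 (95% interval -0.10 to 3.44, adjusted p = 0.82) and 1.05 (-0.54 to 2.65, adjusted p = 1) did not pass. TFF1 in MDAMB468 had 2, 2 and 4 counts with shADAR1 and 0 in all shNT libraries (adjusted p = 1). In MDAMB231 TFF1 had 2, 8 and 20 counts against 6, 6 and 16.

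PGR in MDAMB231 had 4, 26 and 22 counts with shADAR1 against 10, 38 and 20, a log2 difference of -0.80 (95% interval -2.80 to 1.20), and it stayed at 0 in all 6 libraries of MDAMB468. SOX10 differences ran from -0.45 in BT549 to 0.11 in MDAMB468, with SEs of 0.463 to 0.521. In all, arms that did not overlap were seen for 3 of 9 genes in BT549, beside 14.7% of all genes, for 2 of 9 in MDAMB468, beside 11%, and for 0 in HCC1806 (7.58%) and MDAMB231 (14.2%).

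A minority of receptor cofactors and targets passed. Of 101 genes in 7 lists of receptor relatives, chaperones and coregulators, estrogen and glucocorticoid receptor targets, luminal regulators, basal-like markers and paralogs, 96 were tested. In the mean of the lines 5 were higher and 1 was lower with shADAR1, so 6 of 96 passed beside 2.96% of all genes, and 5 of 96 were higher beside 1.26%. In MDAMB231 2 were higher and 2 lower, beside 2.01% of all genes, and in the other 3 lines 0 passed. With the block in 3 lines 17 were higher and 5 lower in the mean, beside 9.55% of all genes. In MDAMB231 that fit gave 9 higher and 7 lower (8.31%), in BT549 5 and 2 (2.85%), in HCC1806 3 and 1 (0.81%), and in MDAMB468 1 higher (0.422%). Without BT549 in the mean, CEBPD, ERRFI1 and ESRRA passed.

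Of the 15 glucocorticoid receptor targets tested, 3 were higher in the mean and none lower, beside 2.96% of all genes called and 1.26% higher, with a median log2 difference of 0.10 over the 13 with enough counts, against 0.02 over all genes. CEBPD, a leucine zipper factor, rose by 0.45 (SE 0.0713, adjusted p = 0.000348), TSC22D3, the glucocorticoid-induced leucine zipper, by 0.41 (SE 0.0847, adjusted p = 0.00564) and ERRFI1, an EGFR inhibitor, by 0.31 (SE 0.0667, adjusted p = 0.00883). In MDAMB231 alone CEBPD rose from 5.02 to 8.91 CPM (log2 difference 0.82, adjusted p = 0.00321). FKBP5, another target, went from 56.8 to 43.6 CPM in MDAMB231 (log2 difference -0.38), which did not pass (adjusted p = 0.285) but was called lower with the block in 3 lines (0.00972). It did not pass in the other lines in either fit. With that block ANGPTL4 was also called higher in MDAMB231 and in the mean. These genes also respond to other signals, and the labels name no added glucocorticoid. Whether the glucocorticoid receptor took part in these changes was not tested.

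Of 18 estrogen receptor targets tested, SIAH2, a ubiquitin ligase, fell in the mean by 0.33 (SE 0.0817, adjusted p = 0.0217) and none rose, with a median of -0.02 over the 15 with enough counts. With the block in 3 lines 2 were higher and 3 lower. Of 8 receptor relatives, ESRRA, an orphan receptor of mitochondrial gene programmes, rose by 0.25 (SE 0.0542, adjusted p = 0.0072), and by 0.50 in MDAMB231 (adjusted p = 0.0138). Of 16 chaperones and coregulators, the corepressor NCOR1 fell by 0.31 in MDAMB231 (SE 0.0758, adjusted p = 0.0322). TP63, the basal cell p63 gene, fell by 1.28 on the log2 scale in MDAMB231 (SE 0.296, adjusted p = 0.0194), from 1.11 to 0.446 CPM. Its log2 differences in BT549 (0.33), HCC1806 (0.19) and MDAMB468 (0.54) went the other way and did not pass. HCC1806 had by far the most TP63, with 174 CPM in shNT and 198 CPM in shADAR1. No gene of the 14 luminal regulators or of the 14 paralogs passed in a line or in the mean. With the block in 3 lines the luminal regulators EHF, OVOL1 and TFAP2C and the paralogs GATA4 and GATA6 were called higher in the mean. By mean CPM over all 24 libraries TRPS1, RUNX1 and EHF were highest of the luminal regulators, and SOX9, ELF4 and ELF1 of the paralogs. Some of these differed widely between lines. In shNT TRPS1 had 490 CPM in BT549 and 7.87 CPM in HCC1806, and EHF had 0.067 and 384 CPM. CDH2, of the mesenchymal list, rose in MDAMB231 from 0.254 to 0.794 CPM (adjusted p = 0.0386). In bulk RNA, a change in level per cell and a change in the share of cells that express a gene cannot be told apart.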

How the data were processed

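Gene-level tables were used for 24 libraries, 3 in each of 8 groups. The authors deposited raw counts per gene, with CPM and RPKM beside them; per the submitters' processing notes the tools included bcl2fastq, STAR 2.5.1a, Subread with featureCounts 1.4.6-p5, and edgeR. The deposited CPM equalled each count's share of its library total, and the deposited RPKM equalled that CPM per kilobase. The genome build, annotation and strand setting are not given in the sources used here. Of 34265 listed genes found in GENCODE 29 (GRCh38), 31354 had the same span; GATA3 and ADAR did not.

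Counts were tested with edgeR 4.0.16 in R 4.3.3 (limma 3.58.1): 8 group means, TMM factors, filterByExpr (21352 genes), quasi-likelihood F tests, 2-sided, Benjamini-Hochberg over all genes and, between lines, also over the 6 pairs, at 0.05. The script was tested on simulated data. A log2 difference is given only where each group held more than 3 counts. Intervals for ratios against 1 to 3 counts are exact (Clopper-Pearson) for independent counts and cover counting error only. They are too narrow where 2 counts stand for 1 fragment. Alternatives were DESeq2 1.42.0, scaling by RLE or by the upper quartile, no filter, a replicate block, fewer libraries in the fit and each library left out. The block in 3 lines and the mean without BT549 were chosen after seeing the data. The members, the lists and the rule for naming genes were chosen with earlier results of these data known: the 9 members, and from each list those past the threshold or else the 3 with the highest mean CPM. Same-numbered libraries of the 2 arms deviated together in BT549 (correlations 0.139 to 0.25), HCC1806 (0.242 to 0.443) and MDAMB231 (0.149 to 0.348), each above 0.1. In MDAMB468 replicates 1 and 2 gave 0.165 and 0.166 and replicate 3 gave 0.0651. Replicate 3 alone kept that line out of the block in 3 lines. A few genes that these rules or lists name are not reported here, though the counts over lists include them.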

Additional observations from a re-analysis of the deposited data

How the results depend on the processing

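Calls within lines depended most on the replicate block, that is, on pairing the arms by replicate number. With it in all lines, members past the threshold went from 0 to 1 in BT549 and in MDAMB468, from 1 to 2 in the mean and from 0 to 2 in the difference between lines, and DESeq2 gave 1 in BT549. In the mean, 0 passed with RLE scaling, with upper-quartile scaling and without BT549, though without BT549 FOXC1 passed with the replicate block in 3 lines (adjusted p = 0.0308) and in all lines (4.05e-05). Between HCC1806 and MDAMB468, 5 were called in a fit of shNT libraries alone, against 3.

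Of the 96 pathway list genes tested, the block in all lines gave 13 in BT549 (5.14% of all genes) and 6 in HCC1806 (2.1%). It gave 26 in MDAMB231 (11.4%) and 8 in MDAMB468 (1.66%). In the mean it gave 31 (13.2%) and in the difference between lines 14 (4.69%). The block in 3 lines gave, in that order, 7 (2.85%), 4 (0.81%), 16 (8.31%), 1 (0.422%), 22 (9.55%) and 4 (1.45%). DESeq2 gave 1 in BT549 (1.4%), 11 in the mean (4.94%) and 1 in the difference (0.585%). Fitting a line alone gave 1 in BT549 and 0 in MDAMB231. No filter on low counts gave 1 in the difference, and the mean without BT549 gave 3. Shares of all genes were not counted for the fits of a line alone, without the filter or without BT549. The NR3C1 and SOX10 means without BT549 were both 0.04, so they changed sign.

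Leaving out each library, members called ranged from 0 to 1 in BT549 and in the mean, from 4 to 5 for BT549 against HCC1806 and against MDAMB468, from 6 to 8 for BT549 against MDAMB231, from 6 to 7 for HCC1806 against MDAMB231, from 3 to 4 for HCC1806 against MDAMB468 and from 8 to 9 for MDAMB231 against MDAMB468. List genes called were 0 to 1 in BT549, 2 to 4 in MDAMB231 (2 without replicate 1 of either arm or replicate 3 of shNT) and 4 to 7 in the mean.

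Signs of uncalled differences changed in such fits. In BT549 the ranges were -1.1 to 4.67 for PGR and -0.16 to 0.05 for FOXC1. In HCC1806 they were -0.67 to 1.38 for PGR, -0.26 to 0.16 for FOXA1, -0.38 to 0.43 for ELF5 and -0.57 to 0.26 for SOX10. In MDAMB231 they were -0.51 to 0.37 for ESR1, -0.93 to 0.39 for FOXA1, -0.77 to 0.35 for SOX10 and -1.3 to 0.02 for TFF1. In MDAMB468 they were -0.00265 to 0.09 for NR3C1, -0.06 to 0.13 for GATA3 and -0.21 to 0.65 for SOX10. In the mean they were -0.03 to 0.02 for NR3C1, -0.26 to 0.07 for FOXA1 and -0.29 to 0.05 for SOX10. Between lines they were -0.25 to 0.17 for SOX10 (BT549 minus MDAMB231) and -0.02 to 0.24 for FOXC1 (BT549 minus MDAMB468). The causes were not tested. Of 228 differences between lines under other settings, 219 kept their direction and side of the threshold. Depth limits PGR, TFF1, ELF5 and SOX10, whose counts were few.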

Other observations

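Several paralogs of the 9 factors were abundant in some of the lines. FOXA2, a forkhead paralog of FOXA1 known from liver and lung, had a shNT mean of 83.6 CPM in MDAMB231, where FOXA1 had 5.54 CPM. HCC1806 had 0.407 CPM of FOXA2, 210-fold less (edgeR adjusted p = 8.24e-13). SOX9, a paralog of SOX10, was at 252 CPM in MDAMB231 and 218 CPM in MDAMB468, and 6.51-fold lower in HCC1806 than in MDAMB231 (adjusted p = 5.98e-07). FOXC2, a paralog of FOXC1, was at 34.2 CPM in HCC1806 and under 0.1 CPM in the other lines. GATA6 was at 57.3 CPM in BT549 and 40.6 CPM in MDAMB231, the lines with the least GATA3. These genes were picked from the list of paralogs after their values were seen.

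FKBP5, a glucocorticoid receptor target and chaperone, was at 0.0283 CPM in BT549, the line with the most NR3C1, and at 23.8 CPM in HCC1806, 56.8 CPM in MDAMB231 and 43.5 CPM in MDAMB468. SOX11, a basal-like marker, was at 89.1 CPM in MDAMB468 and at most 0.0664 CPM in the other lines. TP63 was at 174 CPM in HCC1806 and from 0.962 to 1.54 CPM in the others. These 3 genes were also picked after their values were seen.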
